A study of Mus musculus with 6 samples.

Results

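Fgf3, the ligand genes Fgf4 and Fgf15 that follow it on chromosome 7, the receptor genes Fgfr1, Fgfr2, Fgfr3, Fgfr4 and Fgfrl1 and the adaptor genes Frs2 and Frs3 were examined in LSK cells with and without Oga. These 10 genes were taken by symbol from the 53445 loci of the deposited table. The set was chosen by the read counts of Fgf3 in these libraries, which differ between the genotypes, and by family membership. The levels of Fgf3 are therefore given as a description with no test, and tests are reported for the other genes. LSK cells (Lin-Sca+Kit+) are the bone marrow fraction that contains the hematopoietic stem cells. RNA-Seq was performed on LSK cells of 3 OgaVav-Cre and 3 wildtype mice, all female, C57BL/6 and about 12 weeks old, with at least 20000 cells sorted for each library and 1 library per mouse. In OgaVav-Cre mice the floxed alleles of Oga (Oga fl/fl), which encodes the enzyme that removes O-GlcNAc from proteins, are deleted by a Cre transgene that Vav sequences drive in the blood lineage. Vav sequences are active from fetal blood formation on, so that the deletion is not induced in the adult. The genotype of the wildtype mice at the floxed allele and the transgene was not given in the sources used here.

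Fibroblast growth factors (FGFs) are mostly secreted proteins that bind receptor tyrosine kinases together with heparan sulfate. The activated receptor phosphorylates the docking proteins FRS2 and FRS3, which recruit GRB2, SOS and the phosphatase SHP2 and so switch on the RAS, MAP kinase and PI3 kinase cascades. Sprouty, SPRED and DUSP proteins dampen the signal, and the ETV transcription factors are among its common target genes. FGF3 is known from the inner ear and other parts of the embryo and from mouse mammary tumors, in which viral insertion next to its gene switches it on.

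Each library held between 19318056 and 27064389 reads on listed loci. Levels are given as CPM (counts scaled to library size with TMM factors), and log2 fold changes and log2 differences are those of OgaVav-Cre over wildtype, with their standard error (SE). Levels of different genes are compared per length, as the authors' RPKM. The targeted gene, listed as Mgea5, had 104, 109 and 110 OgaVav-Cre reads against 3164, 2970 and 2736 wildtype reads. All 9 LSK markers checked, among them Kit, Ly6a, Cd34 and Flt3, were above 1 CPM in every library. Their summed level was 1204 to 2421 CPM in OgaVav-Cre and 1549 to 2641 CPM in wildtype libraries. Markers of mature lineages were also read although the sort gates against them, at a summed 153 to 607 CPM in OgaVav-Cre and 176 to 394 CPM in wildtype libraries, with the highest sum in OgaVav-Cre replicate 3. The 7 plasma cell markers summed to 1529 to 11148 CPM and 1633 to 7631 CPM. Stroma markers summed to 214 to 386 CPM in OgaVav-Cre and 212 to 231 CPM in wildtype libraries, endothelial markers to 123 to 156 and 127 to 143 CPM, and epithelial markers to 39.8 to 51.8 and 27.2 to 45.5 CPM. The epithelial keratins Krt5 and Krt14 were at 0 in all 6 libraries. Runx2 made up most of the stroma sum in every library, at 131 to 293 CPM. Pdgfra, at 0.234 to 0.888 CPM, and Col3a1, at 0 to 1.11 CPM, were low. Pecam1 made up most of the endothelial sum, at 84.8 to 110 CPM, and Igj most of the plasma cell sum, at 1186 to 9926 CPM. No marker of any list was called between the genotypes by edgeR, and 2 of the 41 tested had an unadjusted p below 0.05, against 10.6% of all loci. These were Cxcl12, a stroma marker, with a log2 fold change of 0.84, and Cd4, with 1.41, and both overlapped between the genotypes.

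The starts of Fgf3 and of its nearest ligand neighbour Fgf4 are shown first, because Fgf3 was read and Fgf4 was not in the same wildtype cells. Each is the 250 bases before the RefSeq start (GRCm38 promoter table), found once in the mm9 genome on the plus strand. The Fgf3 window is chr7:152024267-152024516 and the Fgf4 window is chr7:152047041-152047290. Capitals mark CpG dinucleotides, the sites of DNA methylation.
Fgf3: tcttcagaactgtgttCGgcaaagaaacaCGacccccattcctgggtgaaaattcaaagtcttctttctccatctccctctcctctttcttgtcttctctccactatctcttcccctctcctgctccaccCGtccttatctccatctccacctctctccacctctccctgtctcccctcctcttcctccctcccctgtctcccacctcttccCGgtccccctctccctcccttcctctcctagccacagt
Fgf4: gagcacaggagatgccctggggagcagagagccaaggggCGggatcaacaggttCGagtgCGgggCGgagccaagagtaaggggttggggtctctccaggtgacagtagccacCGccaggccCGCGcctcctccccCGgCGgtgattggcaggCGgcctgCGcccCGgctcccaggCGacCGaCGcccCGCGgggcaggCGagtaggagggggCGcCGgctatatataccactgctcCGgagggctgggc

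The Fgf3 window had 4 CpG dinucleotides and the Fgf4 window 21, against a median of 6 over the 32536 distinct promoter windows of the RefSeq table. The GC content was 55.2% for Fgf3 and 71.2% for Fgf4. Pyrimidines made up 79.2% of the Fgf3 window as printed, a higher share than in 99.9% of all windows, and 42.4% of the Fgf4 window. The letters TATATA, which read the same on both strands, were in the Fgf4 window, within the stretch tatatata, and not in the Fgf3 window. Of all windows, 5.01% hold them. TATAAA was in neither window on either strand and is in 12.3% of all windows. The Fgf3 window lies inside the span of the locus as counted, which begins further upstream, and the counted Fgf4 locus begins inside the Fgf4 window. DNA methylation and factor binding were not measured.

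In mm9 the Fgf3 locus runs from 152023988 to 152030341 on chromosome 7 (plus strand), with 4 exons and a counted length of 2326 bases. It had 153, 78 and 182 reads in wildtype replicates 1, 2 and 3, and 0, 0 and 1 read in OgaVav-Cre replicates 1, 2 and 3. Every wildtype library was far above every OgaVav-Cre library. The single OgaVav-Cre read came from replicate 3, which had the highest mature lineage markers and also the most reads, 27064389. The source of this read was not tested. The wildtype level was 6.30 ± 1.97 CPM (SD, n = 3). The ratio of wildtype to OgaVav-Cre was 484, with a 95% counting interval of 86.3 to 19144 that covers counting error only. It rests on the 1 OgaVav-Cre read and is given as a description. Wildtype replicate 2 had the lowest Fgf3 level of its group, 4.05 CPM against 7.17 and 7.70 CPM. The same library had the largest share of reads on Ighm, Igkc and Igj among wildtype libraries, 5.48% against 2.05 and 1.36%. In OgaVav-Cre libraries this share was 9.88, 4.14 and 1.17%, and Fgf3 was at 0 or 1 read at all of these shares. The summed mature lineage markers were 324, 176 and 394 CPM in wildtype replicates 1, 2 and 3, the same order as Fgf3. In OgaVav-Cre replicates 1, 2 and 3 they were 203, 153 and 607 CPM. The part of the immunoglobulin reads or of mature cells in the spread of Fgf3 among wildtype libraries was not tested. In bulk RNA, fewer cells that carry a transcript and less of it per cell cannot be told apart. No other listed locus overlaps Fgf3.

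**Figure D1:**
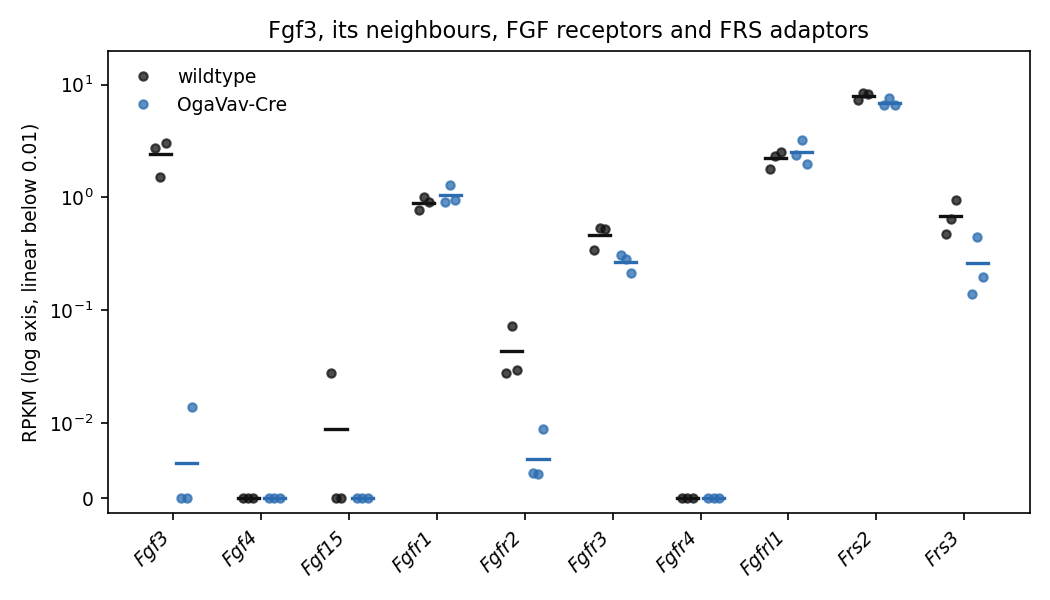
Level per length (RPKM, log axis that turns linear below 0.01) of the 10 genes, with 1 point per library and a line at the mean of 3 libraries, wildtype in black and OgaVav-Cre in blue. Fgf3 is at 2.43 RPKM in wildtype cells and at 0 or 1 read in OgaVav-Cre cells, while Fgfr1, Fgfrl1 and Frs2 overlap between the genotypes and Fgf4 and Fgfr4 stay at 0.

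The neighbouring ligands were near or at 0 in both genotypes. Fgf4, a ligand of the early embryo and the limb bud, begins 16780 bases beyond Fgf3 and had 0 reads in all 6 libraries. Fgf15, the mouse counterpart of FGF19 and a hormone from the intestine to the liver, lies 52094 bases away and had 2 reads in wildtype replicate 1 and 0 in the other 5 libraries. A count of 0 allows up to 3 reads, which corresponds to 0.109 to 0.156 CPM in these libraries, so that a level below this was not detectable. A transcript on the opposite strand, AK050685, overlaps Fgf15 and had 1, 2 and 0 OgaVav-Cre reads against 2, 0 and 0 wildtype reads. Whether counting used strand was not stated, so reads of this pair cannot be told apart.

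Fgf3 was the second of the 22 listed Fgf family genes by level per length in wildtype cells. Fgf2, a ligand without a signal peptide that is widely used in cell culture, was first at 4.09 ± 0.359 RPKM (SD, n = 3), with all 3 libraries above those of Fgf3. Fgf3 followed at 2.43 ± 0.809 RPKM and Fgf11, which encodes an intracellular member of the family, at 1.50 ± 0.542 RPKM, and the libraries of these 2 overlapped. Fgf3 made up 16.5 to 29.9% of the summed RPKM of these 22 genes in the wildtype libraries, intracellular members included. In OgaVav-Cre cells the order began with Fgf2, Fgf11 and Fgf13. Of the 22 Fgf family genes, 12 had at most 3 reads in every library, and these include 5 with no read in any library. At the other end, 3 had at least 20 reads in every library.

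**Figure D2:**
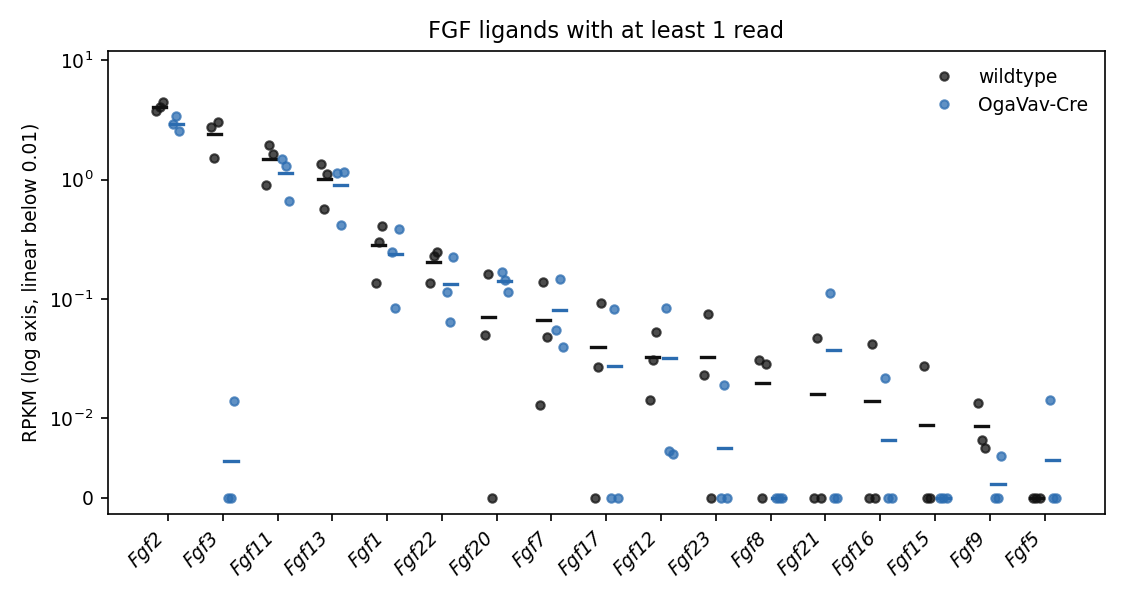
Level per length (RPKM, log axis that turns linear below 0.01) of the Fgf family genes with at least 1 read, ordered by the wildtype mean, with 1 point per library and a line at the mean of 3. In wildtype cells Fgf3 stands second, between Fgf2 at 4.09 RPKM and Fgf11 at 1.50 RPKM.

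Fgf2, the ligand above Fgf3 in this order, was compared between the genotypes as well. It had 344, 413 and 333 OgaVav-Cre reads against 378, 377 and 488 wildtype reads. All OgaVav-Cre libraries lay below all wildtype libraries in CPM, at 14.6 ± 2.18 against 19.3 ± 1.48 (SD, n = 3). By edgeR the log2 difference was -0.40 with an SE of 0.168 and an adjusted p of 0.460, which did not pass the test.

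Fgfr1, on chromosome 8 from 26624126 to 26686186, was the receptor gene with the highest level per length in both genotypes. FGFR1 is a receptor tyrosine kinase of broad expression, and FGF3 binds splice forms of FGFR1 and FGFR2. Fgfr1 had 253, 370 and 288 OgaVav-Cre reads against 180, 220 and 230 wildtype reads. In CPM these were 12.1 ± 2.21 and 9.86 ± 1.49 (SD, n = 3), and the libraries overlapped. The fitted log2 fold change came to 0.30 (SE 0.209, adjusted p = 0.614 by edgeR). Reads were counted per gene, so the splice forms that differ in ligand choice were not resolved.

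Fgfr2, on chromosome 7 from 137305965 to 137410322 and thus far from Fgf3, was low in both genotypes. It had 1, 1 and 3 OgaVav-Cre reads against 7, 17 and 8 wildtype reads. Only the wildtype libraries exceeded the floor of 3 reads. Each OgaVav-Cre library lay below each wildtype library, with the most reads in wildtype replicate 2, at 0.0645 ± 0.0390 against 0.516 ± 0.317 CPM (SD, n = 3). The ratio of wildtype to OgaVav-Cre was 7.49, with a 95% counting interval of 2.90 to 24.6. Fgfr2 did not pass the filter on low counts and was not tested with the other loci. Without the filter, edgeR gave a log2 fold change of -2.87 with an adjusted p of 0.503. DESeq2 gave -2.96 with an unadjusted p of 0.0156 and no adjusted p.

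Fgfr3, on chromosome 5 from 34064373 to 34079716, encodes a receptor best known for restraining bone growth. It had 60, 57 and 46 OgaVav-Cre reads against 56, 82 and 94 wildtype reads. The levels were 2.20 ± 0.494 and 3.62 ± 0.872 CPM (SD, n = 3). Wildtype replicate 1, at 2.62 CPM, lay just below OgaVav-Cre replicate 1, at 2.66 CPM, and the other wildtype libraries were higher. In the authors' RPKM the order of these 2 libraries turned, at 0.340 and 0.308, and the genotypes did not overlap. edgeR put the log2 fold change at -0.72 (SE 0.322, adjusted p = 0.485). Fgfr4, the receptor through which the liver answers FGF15, had 0 reads in all 6 libraries.

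The make-up of the receptor signal per length was compared as well. Of the summed RPKM of Fgfr1 to Fgfr4, Fgfr1 held 74.6, 81.9 and 80.9% in the OgaVav-Cre libraries, against 67.6, 62.4 and 62.0% in the wildtype libraries. The shares of Fgfr3 were 25.1, 17.9 and 18.4% and 29.9, 33.1 and 36.0%, and neither share overlapped between the genotypes. Fgfr4 had no reads, and Fgfr2 held 0.205 to 0.783% in OgaVav-Cre and 2.00 to 4.48% in wildtype libraries. A higher share of Fgfr1 is thus nearly the same observation as a lower share of Fgfr3. These shares were looked at after the levels were known and were not tested. The summed RPKM of the 4 receptors overlapped, at 1.33 ± 0.224 in OgaVav-Cre and 1.40 ± 0.243 in wildtype cells (SD, n = 3). Fgf3 stood at 2.43, 0.934 and 2.07 times this sum in the wildtype libraries.

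Fgfrl1, on chromosome 5 from 109123248 to 109135969, encodes a receptor-like protein that binds FGFs but has no kinase domain. It had 180, 249 and 163 OgaVav-Cre reads against 113, 139 and 173 wildtype reads, at 7.93 ± 1.95 and 6.61 ± 1.14 CPM (SD, n = 3). The libraries overlapped, and by edgeR the log2 difference was 0.26 with an SE of 0.259 and an adjusted p of 0.725. Per length Fgfrl1 was above Fgfr1 in every library, by 2.09 to 2.63 times in OgaVav-Cre and 2.32 to 2.78 times in wildtype cells.

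Frs2, the widely expressed docking protein gene (chromosome 10, 116506483 to 116585590), had the highest level per length of the 10 genes in both genotypes. It had 1612, 1926 and 1774 OgaVav-Cre reads against 1511, 1640 and 1855 wildtype reads. The libraries overlapped at 70.8 ± 5.78 and 78.1 ± 7.14 CPM (SD, n = 3). The fitted log2 fold change came to -0.14 (SE 0.122, adjusted p = 0.680 by edgeR).

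Frs3, its relative on chromosome 17 from 47832156 to 47841235, encodes a docking protein of more restricted expression. It had 9, 30 and 14 OgaVav-Cre reads against 26, 33 and 57 wildtype reads. After scaling, all OgaVav-Cre libraries lay below all wildtype libraries, at 0.699 ± 0.426 against 1.78 ± 0.599 CPM (SD, n = 3). The closest were OgaVav-Cre replicate 2 at 1.19 CPM and wildtype replicate 1 at 1.22 CPM. edgeR put the log2 fold change at -1.34 (SE 0.522, adjusted p = 0.446), and it ran from -1.95 to -1.06 over the fits that drop 1 library. The table lists a longer locus on the same strand, Frs3/Gm14872, that contains Frs3. This locus had 343, 388 and 325 OgaVav-Cre reads against 313, 238 and 301 wildtype reads, not fewer in OgaVav-Cre. Gm14873 on the opposite strand also overlaps Frs3, with 13 reads in all in OgaVav-Cre and 40 in wildtype cells. How reads were divided among these loci was not stated, which leaves the level of Frs3 uncertain.

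Of the 9 genes without Fgf3, 2 had no reads, 5 passed the filter on low counts and 0 were called by edgeR (adjusted p under 0.05, absolute log2 fold change over 1), where 0.0318% of the 22032 loci tested were called. DESeq2 called 0 of them as well, against 0.522% of those loci. At an unadjusted p below 0.05 edgeR gave 1 of the 5, Frs3, against 10.6% of all loci. Frs3 was also the one gene of the 5 with no overlap in CPM, and it lay below wildtype. Over all loci 17.5% did not overlap, with 9.97% below. The median log2 fold change of the 5 was -0.14 and that of all loci tested 0.0041. Fgf3 passed the filter through the wildtype libraries alone and is not in these counts.

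Ranked per length in wildtype cells, the order was Frs2 (8.01 RPKM), Fgf3 (2.43), Fgfrl1 (2.22), Fgfr1 (0.894), Frs3 (0.691), Fgfr3 (0.466), Fgfr2 (0.0431) and Fgf15 (0.00914), with Fgf4 and Fgfr4 at 0. Fgf3 and Fgfrl1 did not differ beyond their spread, nor did Fgfr1 and Frs3 or Frs3 and Fgfr3. In OgaVav-Cre cells Fgf3 stood seventh and overlapped Fgfr2. The other detected genes kept their order except Frs3 and Fgfr3, whose libraries overlapped in both genotypes. Among wildtype libraries the SD was 31.3% of the mean for Fgf3, 33.7% for Frs3, 15.1% for Fgfr1 and 9.14% for Frs2.

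The other genes of the pathway were read from a list of 92 loci in 6 groups, of which 6 had no reads and 69 were tested. None was called by edgeR or by DESeq2. At an unadjusted p below 0.05, edgeR gave 4 higher and 5 lower, 9 of 69 in all, where 4.38% of all loci tested were higher and 6.27% lower. The list had 42 genes with a positive and 27 with a negative log2 fold change, and a median of 0.051. Over all loci tested, 11119 were positive and 10913 negative. The balance of non-overlapping genes was the opposite, with 4 above and 11 below wildtype, against 7.5% and 9.97% of all loci.

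The target genes had the highest median, 0.48 over 8 genes tested, and in 3 of them (Etv5, Etv1 and Ccnd1) the lowest OgaVav-Cre library exceeded the highest wildtype library, against 7.5% of all loci. Etv5, an ETS factor that follows FGF and other receptor signals, had 455, 599 and 392 OgaVav-Cre reads against 244, 182 and 319 wildtype reads. By edgeR the log2 difference was 0.76 with an SE of 0.233 and an adjusted p of 0.412, and the genotypes did not overlap. Its relative Etv1 had 34, 45 and 65 against 20, 17 and 27 reads (log2 fold change 0.93, adjusted p = 0.445, edgeR). Ccnd1, which encodes cyclin D1, is described with the neighbours of Fgf3. Fos, Dusp5, Egr1, Fosl1 and Dusp4 overlapped between the genotypes, with log2 fold changes from -0.50 for Fos to 0.69 for Dusp4.

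The 24 signal relay genes had log2 fold changes from -0.75 to 0.28 with a median of 0.017. Of these, 13 had a positive and 11 a negative log2 fold change. Without overlap, 5 (Gab1, Sos1, Braf, Pik3ca and Nras) lay below wildtype and 0 above, against 9.97% and 7.5% of all loci tested. Of the 5, 2 had an unadjusted p below 0.05 (edgeR), where 6.27% of all loci tested were lower at this cutoff. Gab1, a docking protein that links GRB2 to PI3 kinase, had 359, 373 and 261 OgaVav-Cre reads against 466, 472 and 503 wildtype reads. The 2 genotypes did not overlap in Gab1, and the fitted log2 fold change came to -0.75 (SE 0.214, adjusted p = 0.412 by edgeR). Sos1, the exchange factor that loads RAS with GTP, did not overlap either, at 44.8 ± 3.14 against 58.2 ± 1.76 CPM (SD, n = 3; log2 fold change -0.38, adjusted p = 0.412, edgeR). Araf overlapped (log2 fold change -0.31, adjusted p = 0.491, edgeR).

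Among co-receptors and matrix binding proteins, Gpc2, a glypican, had 216, 149 and 220 OgaVav-Cre reads against 244, 283 and 357 wildtype reads. The genotypes did not overlap in CPM, and edgeR gave a log2 difference of -0.81 (SE 0.232, adjusted p = 0.412). Flrt1 was at 0.238 ± 0.0715 against 0.508 ± 0.112 CPM (SD, n = 3), and Fgfbp3 overlapped. The group of 12 had a median of 0.088. Sdc1, a syndecan that also marks plasma cells, had 3550, 1984 and 1113 against 1142, 1962 and 778 reads, and within each genotype its order was that of the immunoglobulin share.

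Of 12 heparan sulfate enzyme genes tested, 10 had a positive and 2 a negative log2 fold change, with a median of 0.095. The split over all loci tested was 11119 to 10913. Ndst1, which starts the sulfation of the chain, was at 111 ± 5.49 against 91.0 ± 7.36 CPM (SD, n = 3) with no overlap (log2 fold change 0.29, adjusted p = 0.447, edgeR). Hpse and Hs6st2 overlapped, with log2 fold changes of 0.74 and 0.82. Without OgaVav-Cre replicate 2, which had 50 reads against 16 and 17 in the other OgaVav-Cre libraries, Hs6st2 was at 0.098. Hpse had 1102 reads in OgaVav-Cre replicate 3, against 393 and 402 reads in the other OgaVav-Cre libraries, and without that library, which also had the highest sum of mature lineage markers, Hpse was at 0.19. The part of such cells in this value was not tested.

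Of 8 feedback inhibitors tested, 7 had a positive log2 fold change and Rasa1 a negative one, with a median of 0.18. Over all loci tested, 11119 were positive and 10913 negative. Rasa1, a RAS GTPase activating protein, was at 56.9 ± 2.45 against 69.5 ± 4.08 CPM (SD, n = 3) with no overlap (log2 fold change -0.29, adjusted p = 0.439, edgeR). Spred3 had 166, 252 and 93 OgaVav-Cre reads against 46, 54 and 122 wildtype reads, and these overlapped (log2 fold change 1.03, adjusted p = 0.490, edgeR). Dusp6, a phosphatase of ERK, overlapped as well, at 69.9 ± 1.85 against 59.6 ± 13.3 CPM (SD, n = 3). The 5 other Fgf family genes tested all had a negative log2 fold change, from -0.54 for Fgf22 to -0.095 for Fgf13, with Fgf11 at -0.31.

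**Figure D3:**
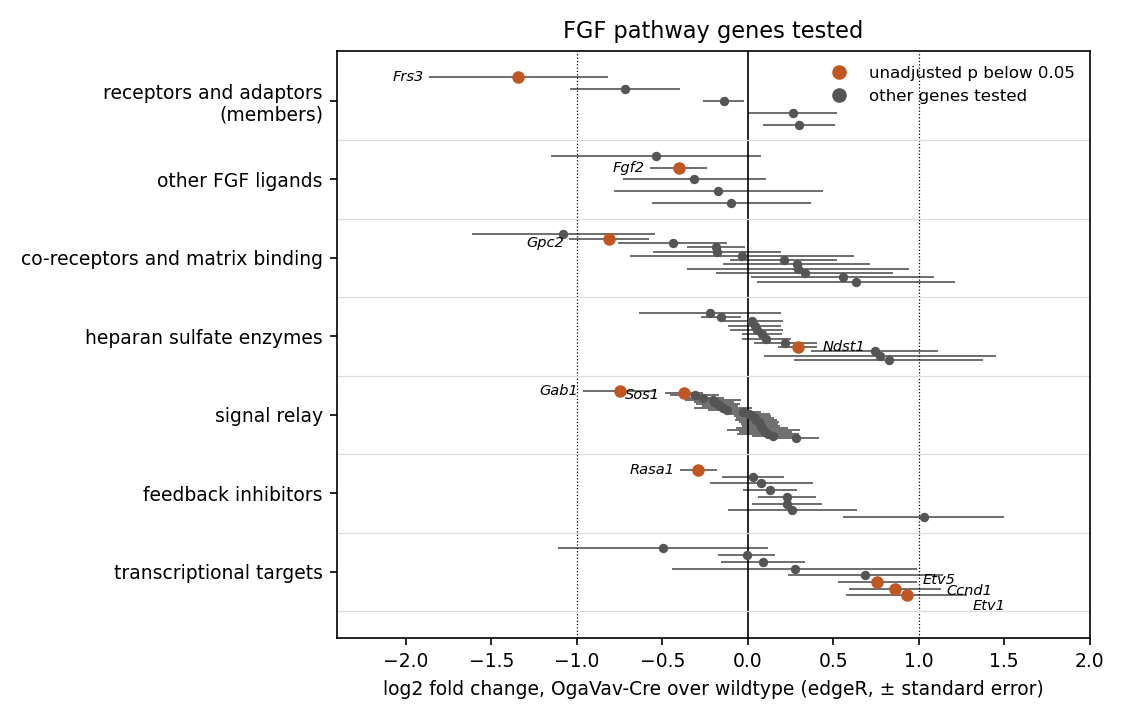
Log2 fold change of OgaVav-Cre over wildtype with its standard error (edgeR) for the 5 receptor and adaptor genes tested and the 69 tested genes of the pathway list, by group, 1 point per gene, with dotted lines at -1 and 1. The 10 genes in orange had an unadjusted p below 0.05 and are Frs3 and 9 genes of the list, and none of the genes shown passed the adjusted test.

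The surroundings of Fgf3 were read to see which loci shared its pattern. Within 500 kb lie 24 other listed loci, of which 9 had no reads and 9 were tested. None was called by edgeR or DESeq2. At an unadjusted p below 0.05 edgeR gave 2, both higher in OgaVav-Cre, and in 3 of the 9 the lowest OgaVav-Cre library exceeded the highest wildtype library, against 7.5% of all loci. In no tested neighbour were all OgaVav-Cre libraries below all wildtype libraries.

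The 3 loci are Oraov1, LOC100503188 and Ccnd1, which overlap each other and begin 70663 to 85494 bases beyond Fgf3. Ccnd1, on the minus strand, had 1337, 1809 and 2109 OgaVav-Cre reads against 1085, 445 and 953 wildtype reads. All OgaVav-Cre libraries were above all wildtype libraries, at 69.3 ± 9.05 against 38.1 ± 14.0 CPM (SD, n = 3), and wildtype replicate 2 was the lowest, as it was for Fgf3. edgeR put the log2 fold change at 0.86 (SE 0.269, adjusted p = 0.412). LOC100503188 had 272, 296 and 301 against 162, 106 and 176 reads (log2 fold change 0.76, adjusted p = 0.401, edgeR). Oraov1 had 854, 830 and 1006 against 660, 454 and 707 reads (log2 fold change 0.35, adjusted p = 0.472, edgeR). By DESeq2 the adjusted p was 0.0706 for Ccnd1 (log2 fold change 0.88), 0.135 for LOC100503188 and 0.530 for Oraov1, and none passed. Since the 3 loci share sequence and the use of strand was not stated, they do not count as 3 separate observations.

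The other tested neighbours overlapped between the genotypes. On the side before Fgf3, Cttn (cortactin) had a log2 fold change of 0.15, AK156942 of -0.55, Ppfia1 (liprin alpha 1) of -0.16, Gm10574 of 0.20 and Fadd (a death receptor adaptor) of 0.33. Beyond Ccnd1, Tpcn2, a channel of lysosomes, had -0.33. Their adjusted p-values from edgeR ran from 0.589 to 0.838. Ano1, the nearest gene before Fgf3 that had any reads, had at most 7 reads in a library.

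**Figure D4:**
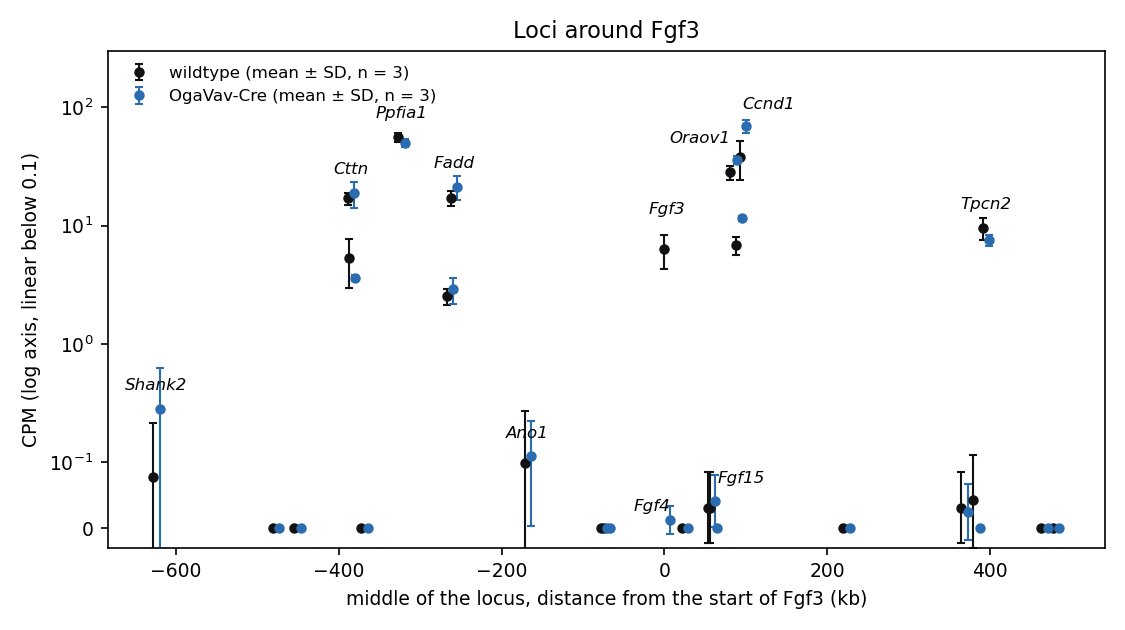
Level in CPM (log axis that turns linear below 0.1) of the 25 loci within 500 kb of Fgf3, Fgf3 included, by the distance of the middle of the locus from the start of Fgf3 in kb, as mean and SD of 3 libraries per genotype. Points are shifted sideways by genotype. Fgf3 is at 6.30 CPM in wildtype and near 0 in OgaVav-Cre cells, and Fgf4 and Fgf15 beside it are near 0 in both.

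Loci with the pattern of Fgf3 were listed as those with at most 3 reads in every OgaVav-Cre and at least 20 in every wildtype library. With Fgf3, from whose values the pattern was taken, these were 5 of 53445 listed loci, or 0.00936%. Since 16931 of the listed loci had no reads, nothing is read from this share. The other 4 are E330018D03Rik, Slc5a9, G530011O06Rik and Rbm44. E330018D03Rik lies inside Oga, and had 512, 678 and 610 reads in wildtype and 0, 0 and 3 reads in OgaVav-Cre libraries. Slc5a9, a sodium-coupled sugar transporter gene on chromosome 4, had 34, 73 and 117 wildtype reads and 0, 1 and 3 OgaVav-Cre reads. G530011O06Rik on chromosome X had 92, 36 and 43 wildtype reads and 1, 0 and 0 OgaVav-Cre reads. Rbm44, an RNA-binding protein gene on chromosome 1, had 55, 51 and 49 wildtype reads and none in OgaVav-Cre, so that it was at least 20.2-fold higher in wildtype against the floor of 3 reads per library. Of the 4, none is on chromosome 7.

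By Pearson's correlation of log2(CPM + 0.5) over the 6 libraries, the loci most like Fgf3 were Ccdc88a (0.998), AK085021 (0.997), LOC100302626 (0.994), 3110056O03Rik (0.989) and Mettl8 (0.989). These values are a description over libraries that fall into 2 genotypes. Their levels were not near 0 in OgaVav-Cre cells, with Ccdc88a at 63.1 CPM against 79.3 CPM in wildtype cells, AK085021 at 2.37 against 5.23 CPM and Mettl8 at 9.53 against 15.5 CPM. Of the 5, 4 had the same order of the wildtype replicates as Fgf3. The 5 were picked as the highest correlations among all loci tested, over these same libraries. A shared replicate order thus follows in part from how they were picked, and nothing is read from it.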

How the data were processed

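LSK cells of 3 OgaVav-Cre and 3 wildtype mice were profiled by poly(A) RNA-Seq with single-end reads of 50 bp. Groups and replicate numbers follow the labels. Reads were aligned by the authors to mm9, and Genomatix was used for the summary by locus (CASAVA 1.8.2 is named in the submitters' processing notes). Versions of the aligner, the counting and the annotation, and the use of strand, were not given in the sources used here. The deposited values used are counts, raw reads per locus, and RPKM, which the authors made from these counts and the locus length. Columns of normalized expression, and of the fold changes and p-values of the study's own comparison, were not used.

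The quasi-likelihood test of edgeR 4.0.16 in R 4.3.3 (glmQLFit and glmQLFTest, TMM factors, filterByExpr) was run on these counts, with Benjamini-Hochberg adjustment over the 22032 loci tested. A call needed an adjusted p under 0.05 together with an absolute log2 fold change over 1. With 3 libraries against 3, a permutation test of 1 gene cannot go below a two-sided p of 0.1, and none was run. Counting intervals are exact binomial intervals of the split of reads at 95%.

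The members, the pathway and marker lists and the rules were chosen with earlier results of these data known. The genes named are the 10 members, tested loci within 500 kb of Fgf3, up to 3 genes with the smallest p in each pathway group, Mgea5, and the loci most like Fgf3. Sdc1, Fos, Dusp4, Dusp5, Egr1, Fosl1, Braf, Pik3ca, Nras, Ano1, Cxcl12, Cd4 and Fgf13 were named after their values were seen. Of 93 listed pathway genes 92 are in the table. Where a symbol repeats, the longest locus was used. Of the 10 members, 8 have a RefSeq promoter window.

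The alternatives were RLE size factors, all loci with a read in place of the filter, a minimum of 10 reads per library, the Wald test of DESeq2 1.42.0, limma-voom (limma 3.58.1), the RPKM with pseudocounts of 0.1 and 1, a replicate block and each library left out in turn. Figures were made with Python 3.11.15 and matplotlib 3.10.9.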

Additional observations from a re-analysis of the deposited data

How the results depend on the processing

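The counts of called genes among the 9 genes without Fgf3, the pathway list and the neighbours of Fgf3 were 0 under all 14 alternatives. Over all loci, 7 were called by edgeR, 21 without a filter, 4 with at least 10 reads in every library, 4 from RPKM with a pseudocount of 1 and 116 by DESeq2, and 3 to 9 when 1 library at a time was dropped. Leaving out OgaVav-Cre replicate 1 or 2 gave 3, and leaving out wildtype replicate 1 or 3 gave 4. The cause of these shifts was not tested. The wildtype level of Fgf3 was 6.27 CPM with RLE factors, 5.65 as RPKM times length, and 5.51 to 7.42 with 1 wildtype library left out. By the wildtype mean, Fgf3 was second per length also with reads of the table as the divisor. A divisor is shared by all genes of a library, so it cannot change the order within a library. In wildtype replicate 2 Fgf11 was above Fgf3, at 1.95 against 1.51 RPKM. With the replicate number as a block, edgeR called 6 loci in place of 7 and none of the genes described here. Deviations of libraries with the same number correlated at -0.0885, 0.309 and 0.382, and OgaVav-Cre replicate 1 correlated best with wildtype replicate 2, so the numbers were not taken as pairs. The log2 fold change of Frs3 was -0.42 from RPKM with a pseudocount of 1, which compresses low levels. Fgf15 and Fgf4 in all libraries, and Fgfr2 in the OgaVav-Cre libraries, had at most 3 reads. This floor is 0.109 to 0.156 CPM per library, and lower levels were not detectable. In wildtype libraries Fgfr2 had 7, 17 and 8 reads, above the floor.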
